A study of Homo sapiens with 4 samples.

Results

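The 10 genes described here make up the nuclear end of the Hippo pathway, with the kinases that restrain it and a pair of its best known transcriptional targets. They were chosen by gene symbol from a table of transcripts measured in RIP-seq of MDA-MB-231 cells, and every listed transcript was kept. All 10 genes were found, with 53 of the 75165 listed transcripts and 10 of the 20298 listed genes. MDA-MB-231 is a triple negative breast cancer line. In all libraries the cells carried a lentiviral vector in which the CMV promoter drives Flag-tagged YTHDC1, a nuclear reader of the RNA modification m6A. Transduction was at a multiplicity of infection of 4, and puromycin at 2 μg/ml was then applied for 4 days to select the carriers. There were 2 Flag-YTHDC1 IP libraries, from UV-crosslinked nuclear lysate incubated with anti-Flag antibody, and 2 input libraries from the same kind of lysate, which the series' text calls total RNA. Libraries from cells without the vector or from an IgG control were not analysed here.

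Each value below is the authors' mean normalized count of a transcript, taken over the IP and input libraries together. A normalized count is the number of reads assigned to a transcript after scaling the libraries to each other. These values therefore describe how the reads of the 10 genes were spread over their transcripts in the whole experiment. Whether a transcript was recovered with YTHDC1 cannot be told from them, and no difference between IP and input is given. As single libraries have no values of their own here, their depth and the spread between replicates are unknown, and no error, interval or test accompanies the means. A long transcript collects more reads than a short one at the same number of molecules, and the values are not per length. Sums over a gene are given as read support, the number of reads that its shares divide, and not as an order of expression. How many of those reads tell its transcripts apart is not in the values, so a large sum does not make the shares firm. The shares of transcripts within a gene are shares of reads for the same reason.

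In the Hippo pathway, the kinases LATS1 and LATS2 phosphorylate the coactivators YAP, encoded by YAP1, and TAZ, encoded by WWTR1, and so keep them out of the nucleus. When YAP and TAZ are not phosphorylated, they enter the nucleus and bind the TEAD factors, which provide the contact with DNA. CCN1 and AMOTL2 are among the genes that are switched on in this way. The pathway is known in breast cancer cells for its influence on growth, migration and the response to cell contact and stiffness.

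The libraries carried the RNA of a mesenchymal breast cancer line. All 4 markers listed for such a line were found, with summed mean normalized counts from 7624 for CAV1 to 80785 for VIM. Of the 4 luminal or epithelial markers, ESR1 and PGR were not listed, CDH1 had 10.0 and EPCAM had 78.3. Of the 4 markers of other cell types, DCN was not listed, PTPRC (leukocytes) had 3.81, PECAM1 (endothelium) had 102 and COL1A1 (fibroblasts) had 705. The nuclear RNAs MALAT1 and NEAT1 had 45810.1 and 4322. YTHDC1, the overexpressed gene, had 55488 over 6 transcripts.

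The 10 genes together held 61636 of the 33361205 mean normalized counts in the table, or 0.185%. Summed over its transcripts, CCN1 had 23367, AMOTL2 11524, YAP1 7359, LATS2 6259, TEAD1 4984, WWTR1 3042, LATS1 1889, TEAD3 1781, TEAD4 851 and TEAD2 579. CCN1 alone held 37.9% of the reads of the 10 genes. All 10 sums lay above the median of all listed genes, 227, and 9 lay above the median of the 14050 listed protein-coding genes, 588, with TEAD2 just under it. In percentiles of read support among all listed genes, the 10 genes ran from 63.9 for TEAD2 to 99.4 for CCN1, with a median of 91.8. All 10 thus rested on more reads than most genes of the table.

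**Figure D1:**
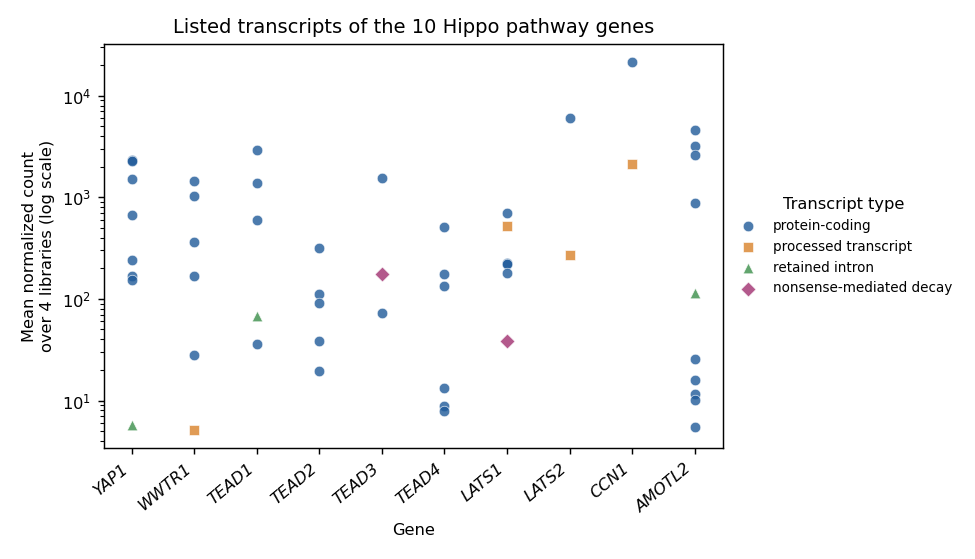
Mean normalized count over the 4 libraries (log scale) of each of the 53 listed transcripts, by gene, with the shape and colour of a point giving the annotated transcript type. Values run from 5.11 for WWTR1-207 to 21260.0 for CCN1-201, and in every gene the highest point is a protein-coding transcript.

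Of the 53 transcripts, 44 were annotated as protein-coding, 4 as processed transcripts (transcripts with no open reading frame assigned), 3 as retained intron and 2 as targets of nonsense-mediated decay. Protein-coding transcripts thus made up 83.0% of those listed for the 10 genes, against 59.6% of those listed for all protein-coding genes. Retained-intron transcripts made up 5.66% against 17.2%, those marked for nonsense-mediated decay 3.77% against 9.86%, and processed transcripts 7.55% against 13.2%. In each of the 10 genes the transcript with the most reads was a protein-coding one. This was so in 86.9% of the 11482 protein-coding genes with at least 2 listed transcripts. The protein-coding transcripts held 94.6% of the reads of the 10 genes, against 87.6% over all protein-coding genes. As CCN1 weighs heavily in that sum, the share was also taken without it, which gave 96.9%. Per gene, the median share of protein-coding transcripts was 98.8%, against 90.7% over the 11482 genes. These backgrounds were not matched to the 10 genes in read support, where the members had a median percentile of 91.8. Whether the differences go with read support, or are shared by the rest of the pathway, was not tested.

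The remaining reads were unevenly divided among the types. Retained-intron transcripts held 0.307% of the reads of the 10 genes, against 4.16% over all protein-coding genes. Transcripts marked for nonsense-mediated decay held 0.345%, against 4.22%. Processed transcripts held 4.71%, against 4.02%. Of the 10 genes, 4 listed such a transcript, near the 44.2% of the 11482 genes that do. Most of the reads of this type came from CCN1-202. It had 2107, beside 519 for LATS1-206, 272 for LATS2-202 and 5.11 for WWTR1-207. The 4.71% is therefore not a trait of the 10 genes as a group, and the share without CCN1 was not computed. No test was run on these shares.

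The coactivator YAP1 (ENSG00000137693.14, chromosome 11, 102110447 to 102233424) had its reads spread over several transcripts in the mean over the libraries. Coordinates of genes are those of RefSeq on GRCh38.p14. YAP1-204 (ENST00000526343.5) had a mean normalized count of 2305 and YAP1-211 (ENST00000629586.2) had 2296, a ratio of 1.00. YAP1-208 (ENST00000531439.5) followed with 1513. These 3 protein-coding transcripts held 31.3%, 31.2% and 20.6% of the gene's reads. No single transcript thus stood for YAP1 in the mean over these libraries. Whether this also held in IP or in input alone cannot be told from that mean. Which of the leading pair comes first cannot be decided without values per library. YAP1-203 had 673, and YAP1-207, YAP1-210 and YAP1-201 lay between 155 and 243. The retained-intron transcript YAP1-205 had 5.76, which is 0.0782% of the gene.

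Among the 627 other protein-coding genes with 8 listed transcripts, the leading transcript held a median of 46.1% of the reads, with quartiles of 36.2% and 61.1%. The 31.3% of YAP1-204 was above the leading share of 15.2% of them. The leading transcript of YAP1 thus held less of its gene than is usual for a gene with that many transcripts. The first 3 transcripts of YAP1 still held 83.1% of its reads together, and evenness over all 8 was not compared with other genes. The transcripts of YAP1 are known to differ by small exons that code for a WW domain and for parts of the activation domain. How many reads fit only 1 of these transcripts is not in the values, and the part that the assignment of shared reads has in the division was not tested.

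WWTR1 (ENSG00000018408.14, chromosome 3, 149517235 to 149724788), which encodes TAZ, had 6 listed transcripts. WWTR1-201 (ENST00000360632.7) led with 1435, followed by WWTR1-204 (ENST00000467467.5) with 1041 and WWTR1-203 (ENST00000465804.5) with 366. They held 47.2%, 34.2% and 12.0% of the reads. WWTR1-211 had 167, WWTR1-202 had 28.0, and the processed transcript WWTR1-207 had 5.11, the lowest value of all 53 transcripts. The leading share was close to that of the 1187 other protein-coding genes with 6 listed transcripts, whose median was 52.8%. As in YAP1, more than a single transcript carried the gene in the mean over the libraries, but here the first was 1.38 times the next. Of the reads assigned to the 2 coactivator genes, 70.8% went to YAP1.

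RefSeq places 2 long noncoding RNA genes that are listed in the table inside or across the locus of WWTR1. WWTR1-AS1, an antisense gene at 149658210 to 149661364, had 95.5 over 3 transcripts, and WWTR1-IT1, inside an intron, had 7.57. The libraries were made with a kit that keeps the strand of the RNA, but whether the quantification used strand is not given in the sources used here. If it did not, reads of WWTR1 and of its antisense gene cannot be told apart where their transcripts overlap. Both sums were small beside the 3042 of WWTR1.

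The TEAD factors share a DNA-binding TEA domain and a domain that binds YAP and TAZ. All 4 were listed, with 8196 mean normalized counts in all. TEAD1 held 60.8% of these, TEAD3 21.7%, TEAD4 10.4% and TEAD2 7.07%. These are shares of reads and not of molecules, and reads from stretches that the 4 paralogs have in common could have been assigned to any of them.

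TEAD1 (ENSG00000187079.18, chromosome 11, 12674421 to 12944737) had 5 listed transcripts. TEAD1-206 (ENST00000527636.6) led with 2893, or 58.0% of the gene. TEAD1-207 (ENST00000638666.1) had 1383 and TEAD1-204 (ENST00000527376.2) had 604, with 27.7% and 12.1%. These protein-coding transcripts held 97.9% between them. The retained-intron transcript TEAD1-202 had 68.3, or 1.37%, and the protein-coding TEAD1-201 had 36.4.

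TEAD3 (ENSG00000007866.21, chromosome 6, 35473597 to 35497079) was carried by a single transcript. TEAD3-201 (ENST00000338863.12) had 1534, or 86.2% of the gene, and was 8.82 times the next. That next transcript, TEAD3-202 (ENST00000402886.8), is annotated as a target of nonsense-mediated decay and had 174, or 9.77%. The protein-coding TEAD3-203 had 72.6. Nonsense-mediated decay removes RNAs with an early stop codon, mostly in the cytoplasm. TEAD3 and LATS1 were the members with a listed transcript of this type, which 35.3% of the 11482 genes have, with a median of 12.3% of the reads where there is one.

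TEAD4 (ENSG00000197905.9, chromosome 12, 2959397 to 3040676) and TEAD2 (ENSG00000074219.13, chromosome 19, 49340595 to 49362416) rested on the fewest reads. For both, every listed transcript was protein-coding, as in 21.7% of the 11482 genes. TEAD4-202 (ENST00000359864.7) had 511, TEAD4-203 (ENST00000397122.6) had 176 and TEAD4-207 (ENST00000543035.5) had 134. They held 60.0%, 20.7% and 15.8% of the gene. The other 3 TEAD4 transcripts had between 7.86 and 13.2. TEAD2-201 (ENST00000311227.6) had 318, TEAD2-204 (ENST00000593945.5) had 113 and TEAD2-203 (ENST00000539846.5) had 90.2. They held 55.0%, 19.4% and 15.6%, and the other TEAD2 transcripts had 38.4 and 19.6. All these leading shares were near the middle for genes with as many listed transcripts. They were above those of 53.2% of such genes for TEAD1, 48.3% for TEAD2 and 61.4% for TEAD4, where the medians were 56.4%, 56.5% and 52.7%.

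LATS1 (ENSG00000131023.13, chromosome 6, 149658153 to 149718101) stood apart from the other 9 genes by the type of its transcripts. LATS1-202 (ENST00000392273.7), protein-coding, led with 703 and 37.2% of the gene. LATS1-206 (ENST00000542747.5), a processed transcript with no assigned reading frame, came next with 519 and 27.5%. The protein-coding LATS1-204 (ENST00000458696.2) and LATS1-201 (ENST00000253339.9) had 224 and 223, with 11.9% and 11.8%. LATS1-207 had 182, and LATS1-203, annotated for nonsense-mediated decay, had 38.8. Transcripts other than protein-coding thus held 29.5% of the reads of LATS1, more than in 74.4% of the 11482 genes with at least 2 listed transcripts. In the other 9 members this share was at most 9.77%.

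LATS2 (ENSG00000150457.9, chromosome 13, 20973036 to 21061586), the paralog of LATS1, had almost all of its reads in one place. LATS2-201 (ENST00000382592.5) had 5988, or 95.7% of the gene, and the processed transcript LATS2-202 (ENST00000472754.1) had 272. The leading share was above that of 84.6% of the 2012 other protein-coding genes with 2 listed transcripts, whose median was 79.1%. LATS1-202 held a larger share of its gene than the leading transcript did in 16.8% of the genes with 6 listed transcripts. Of the reads assigned to the 2 kinase genes, 76.8% went to LATS2.

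**Figure D2:**
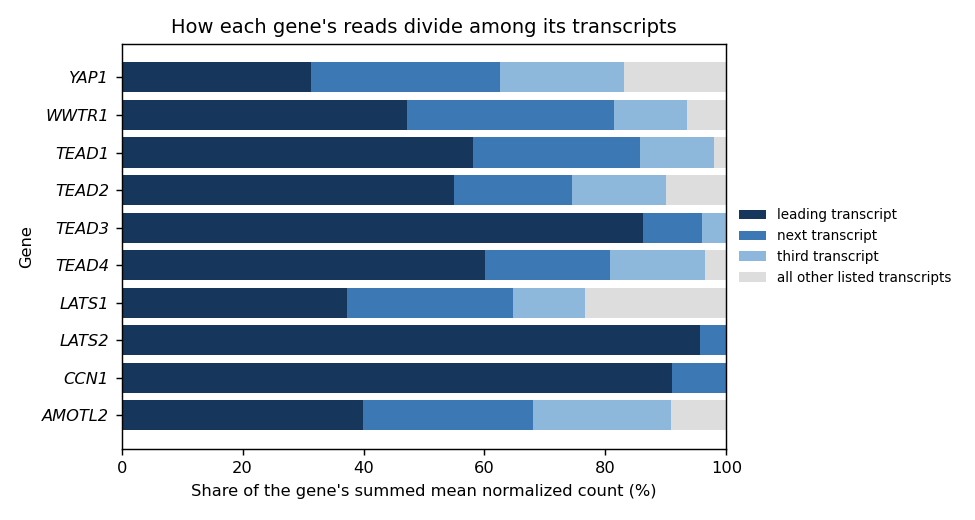
Share of each gene's summed mean normalized count (%) that went to its leading transcript, the next, the third and all other listed transcripts. The leading transcript held from 31.3% in YAP1 to 95.7% in LATS2, and held over 50% in 6 of the 10 genes. Over the 11482 protein-coding genes with at least 2 listed transcripts, its median share was 59.7%.

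CCN1 (ENSG00000142871.17, chromosome 1, 85580761 to 85583950), long known as CYR61, encodes a secreted matrix protein and is a standard readout of YAP and TEAD activity. CCN1-201 (ENST00000451137.7) had 21260.0, the highest value of the 53 transcripts and above 99.9% of all listed transcripts. The processed transcript CCN1-202 (ENST00000480413.1) had 2107, or 9.02% of the gene.

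AMOTL2 (ENSG00000114019.14, chromosome 3, 134355345 to 134375417) encodes a junction protein of the angiomotin family that binds YAP and holds it in the cytoplasm, and the gene is itself a target of YAP. It had the most listed transcripts of the 10 genes, with 10. AMOTL2-211 (ENST00000513145.1) had 4603, AMOTL2-201 (ENST00000249883.9) had 3226 and AMOTL2-202 (ENST00000422605.6) had 2636. They held 39.9%, 28.0% and 22.9% of the gene, so that 90.8% of the reads lay in 3 protein-coding transcripts. AMOTL2-205 had 874, the retained-intron transcript AMOTL2-207 had 115, and the other 5 had between 5.48 and 25.5. AMOTL2-207 was the largest retained-intron transcript among the 10 genes. Without AMOTL2, retained-intron transcripts held 0.148% of the reads of the other 9 genes. Its paralogs AMOTL1 and AMOT had 10575 and 6.28.

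**Figure D3:**
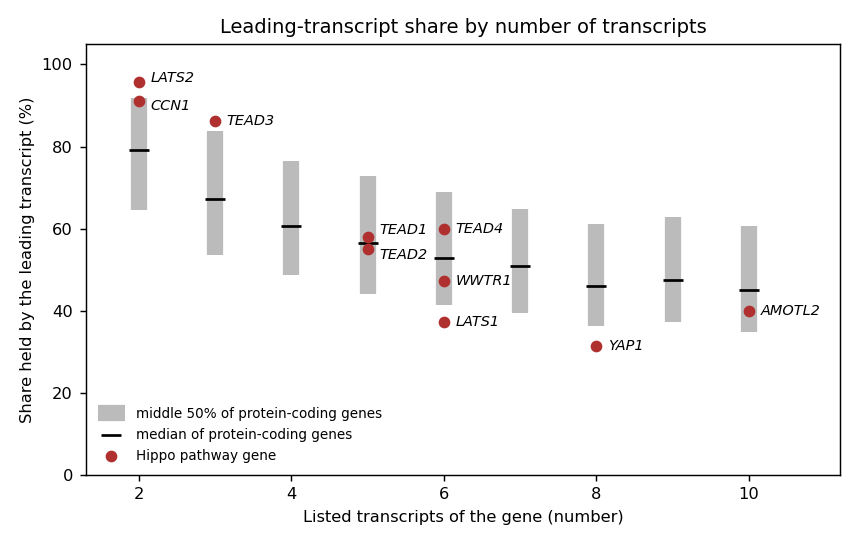
Share of a gene's reads held by its leading transcript (%) against its number of listed transcripts, with red points for the 10 genes, grey bars for the middle 50% of protein-coding genes with that number and black marks for their median. YAP1 at 31.3% and LATS1 at 37.2% lie below the grey bar, and LATS2 at 95.7% and TEAD3 at 86.2% lie above it.

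Across the 10 genes, the leading transcript held a median of 56.5% of the reads, against 59.7% over the 11482 genes. Beside genes with as many listed transcripts, the median member was above 50.7% of them, so the 10 genes as a group were near the middle and differed widely among themselves. The members at either end were YAP1, LATS1, LATS2 and TEAD3. The leading transcript had at least 2 times the reads of the next in 6 genes, and the ratio ran from 1.00 in YAP1 to 22.0 in LATS2. How often other genes reach that ratio was not computed, so the count describes the members alone. Over all members, 25 transcripts held at least 10% of their gene, 14 had a mean normalized count of at least 1000 and 5 had one under 10. Of all listed transcripts, 7.23% had at least 1000 and 17.2% had under 10. The share of them that held at least 10% of their gene was not computed.

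The rest of the pathway was also covered by reads. All 9 genes on a list of the kinase module, which leaves out LATS1 and LATS2, were found, from 161 for MOB1B, a coactivator of the LATS kinases, to 10804 for MAP4K4, a kinase that acts on LATS. STK4 and STK3, the MST kinases that phosphorylate LATS, had 1977 and 421. Of 13 upstream regulators, 12 were found, CRB3 being the one that was not, from 309 for DCHS1 to 57387 for FAT1, an atypical cadherin. NF2, which encodes merlin, an activator of LATS at the membrane, had 827. The median summed mean normalized count was 1977 in the kinase module and 3342 in the upstream regulators.

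Of 11 other genes whose proteins bind or inhibit YAP, TAZ or TEAD, 10 were found. VGLL1 was not listed, VGLL2 had 4.65, VGLL3 had 106 and VGLL4 had 861. These encode Vestigial-like proteins, which compete with YAP for TEAD or join TEAD in its place. PTPN14, a phosphatase that binds YAP, was the highest of the list with 15933, and AMOT and VGLL2 were the lowest. All 19 other target genes of YAP and TEAD were found, from 365 for RBMS3 to 63189 for AXL, a receptor tyrosine kinase. CCN2 and ANKRD1, which are used beside CCN1 as readouts of the pathway, had 4854 and 9055, each from 1 listed transcript. AXL is also counted among the markers of the cell line, and AJUBA and PTPN14 stand in 2 of the lists.

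**Figure D4:**
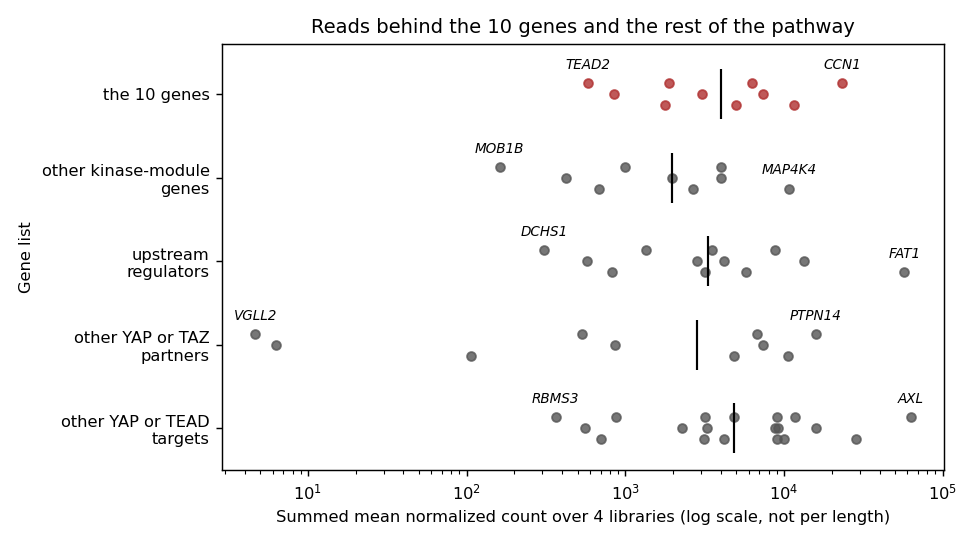
Summed mean normalized count over the 4 libraries (log scale, not per length) of the 10 genes in red and of the other pathway genes in grey, by list, with a black line at each list's median and the names of its lowest and highest gene. The medians run from 1977 to 4854, and the 10 genes have a median of 4013.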

How the data were processed

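RNA was depleted of rRNA and made into libraries with a KAPA Stranded kit. RIP-seq reads of 4 libraries were, per the labels, processed with STAR (version 2.7.2b) and RSEM (version 1.2.31) on GRCh38. The paper's methods add a GENCODE transcriptome, a minimum number of reads per transcript, batch correction with RUVSeq and DESeq2. RSEM divides reads that fit several transcripts by estimation, so a transcript's share may depend on the few reads that fit it alone. The deposited signal value, which the authors computed per transcript, averages its normalized counts over all libraries. The table's other 4 numeric columns hold the authors' own comparison of IP and input (fold change, its standard error, p-value and adjusted p-value) and were not used. With no counts per library, the planned test of IP against input was not run, and depth per library is unknown.

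Sums and shares per gene were computed with python 3.11.15, numpy 2.4.6, pandas 2.3.3 and matplotlib 3.10.9, and were tested on simulated data. Transcripts that led their gene or held at least 10% of it were named, the rest given mostly by range. Gene symbols came from the table, and all 10 Ensembl identifiers carried the same symbol in a separate name table. The members and gene lists were chosen with earlier results of these data known. Alternatives were minimum means of 10 and 100, protein-coding transcripts alone, the leading transcript in place of the sum and, added after the data were seen, other backgrounds and members left out.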

Additional observations from a re-analysis of the deposited data

How the results depend on the processing

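No paired analysis was possible because the table holds no value per library, and for the same reason no library could be left out and no other normalization tried. With no replicate spread to judge by, any change in the first 3 digits is given. With a minimum mean normalized count of 10, 48 of the 53 transcripts of the 10 genes remained, protein-coding transcripts held 94.7% of the reads against 94.6%, and the median percentile of read support was 90.4 against 91.8. With a minimum of 100, 35 transcripts remained, the leading transcripts held 68.0% against 67.4%, and protein-coding transcripts held 94.8%. With protein-coding transcripts alone, the leading transcripts held 71.2% and the median percentile was 89.6. With the leading transcript in place of the gene's sum, that percentile was 89.0. The settings that follow were chosen after the data were seen. Beside genes with as many transcripts, the median percentile of the leading share was 48.8 with background genes of at least 100 summed counts and 52.8 with a minimum of 10, against 50.7. Without CCN1, the leading transcripts held 53.0% of the reads and protein-coding transcripts 96.9%. Retained-intron transcripts, at 0.307% of the reads, held 0.148% without AMOTL2 and 0.213% without TEAD1, so AMOTL2 decides that value by over 1.5 times. As transcript lengths were not used here, the order of levels between genes is unknown.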
